A study of Mus musculus with 16 samples.

Results

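The expression of 10 genes of the calcineurin pathway was followed in the hearts of BACHD and wild-type (WT) mice: the calcineurin regulators Rcan1 and Rcan2, the catalytic subunits Ppp3ca and Ppp3cb, the transcription factors Nfatc1, Nfatc2, Nfatc3 and Nfatc4, and the MEF2 factors Mef2a and Mef2c. The genes were chosen by name, and their probes by the gene symbol in the platform annotation. All 10 genes had at least 1 probe, and together they had 28 of the 25697 probes and stood among 16593 named genes. Ventricular RNA of 16 mice was hybridised to Illumina MouseRef-8 v2.0 arrays, with 1 array for each mouse and 4 mice in each of 4 groups: BACHD old (15 mo), WT old (15 mo), BACHD young (3 mo) and WT young (3 mo). The BACHD transgene is a bacterial artificial chromosome that holds mutant human huntingtin in full length under the human gene's own regulatory sequence, while the WT mice were littermates without it. All 4 groups were on the C57BL6/J background and no treatment is named for them. Ages in months and the use of ventricles are taken from the methods, since the labels say no more than young, old and heart.

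Across the groups, the median signal of an array was between 133 and 157 and an array detected between 9780 and 10755 probes at a detection p-value below 0.01. The 5 markers of ventricular cardiomyocytes that had a probe were detected in all groups, with a mean level on the normalized log2 scale of 14.5 to 14.6 on the old BACHD arrays, 14.5 to 14.6 on the old WT arrays, 14.5 on the young BACHD arrays and 14.4 to 14.6 on the young WT arrays. Of 6 markers of atrial cardiomyocytes, 3 (Myl7, Myl4 and Sln) were raised on the same 4 old arrays, old BACHD 3 and 4 and old WT 2 and 4. Myl7, the atrial light chain of myosin, read 4.56, 4.68, 7.20 and 6.99 in old BACHD hearts 1 to 4 and 4.78, 7.14, 5.06 and 9.27 in old WT hearts 1 to 4, and between 4.50 and 5.29 in all 8 young hearts. Mybphl was highest on old BACHD 3 and 4 and old WT 4 and read 5.97 on old BACHD 1 and 5.43 on old WT 2, whereas Gja5 and Nppa were not raised on the 4 arrays, where Gja5 read 6.55 to 6.91 and Nppa 11.89 to 13.69. Results that rest on these arrays are given with and without them. In whole ventricles, fewer cells of a type and less RNA in each cell cannot be told apart.

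Calcineurin is a phosphatase that is switched on by calcium and calmodulin. It removes phosphate from NFAT proteins, which then enter the nucleus and act on genes together with MEF2, GATA4 and AP-1, and in cardiomyocytes this route is known for its part in hypertrophic growth. Rcan1 and Rcan2 encode proteins that bind calcineurin and restrain it. Rcan1 has 2 promoters, and the internal one is itself a known target of NFAT, so that its transcript is widely used as a readout of calcineurin activity.

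The promoters of the 2 genes called below, Rcan1 and Nfatc4, are shown because NFAT sites in the internal Rcan1 promoter are the textbook basis for reading calcineurin activity from Rcan1. Each is the 250 bases before the transcript start, 5′ to 3′ on the strand of the gene, from RefSeq on the GRCm38.p6 build. Capitals mark the letters GGAAA, the core of the NFAT site, or TTTCC on the other strand, the AP-1 site TGACTCA on either strand, and the E-box CACGTG, which reads the same on both strands. None of the marked matches overlap. The windows are the outer Rcan1 promoter at chr16:92466170-92466419 on the minus strand, the internal Rcan1 promoter at chr16:92400079-92400328 on the minus strand, and the Nfatc4 promoter at chr14:55824545-55824794 on the plus strand.
Rcan1 outer promoter: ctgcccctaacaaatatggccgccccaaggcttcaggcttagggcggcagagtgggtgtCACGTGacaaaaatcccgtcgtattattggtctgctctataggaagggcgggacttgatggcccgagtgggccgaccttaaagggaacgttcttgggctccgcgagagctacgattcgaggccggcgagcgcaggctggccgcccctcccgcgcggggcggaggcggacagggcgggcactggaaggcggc
Rcan1 internal promoter: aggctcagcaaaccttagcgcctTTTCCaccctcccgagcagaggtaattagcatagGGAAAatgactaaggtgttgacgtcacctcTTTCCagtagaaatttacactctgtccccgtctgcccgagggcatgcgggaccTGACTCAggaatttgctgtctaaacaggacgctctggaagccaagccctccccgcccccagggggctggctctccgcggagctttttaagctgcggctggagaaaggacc
Nfatc4 promoter: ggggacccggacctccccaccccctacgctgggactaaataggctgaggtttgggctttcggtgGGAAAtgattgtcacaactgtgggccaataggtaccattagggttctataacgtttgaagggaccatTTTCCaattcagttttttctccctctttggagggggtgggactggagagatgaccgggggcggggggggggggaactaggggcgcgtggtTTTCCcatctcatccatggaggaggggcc

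The outer Rcan1 window held 0 GGAAA cores and 1 E-box, which began 191 bases before the start. The internal Rcan1 window held 3 GGAAA cores, at 227, 193 and 163 bases before the start, and 1 AP-1 site at 110 bases. The Nfatc4 window held 3 cores as well, at 186, 119 and 29 bases. Of 32851 promoter windows of the same length, 55.6% held at least 1 GGAAA core and 6.39% at least 3, while 4.46% held the AP-1 site and 6.02% the E-box. Of the 15 windows that RefSeq gives for 8 of the 10 genes, 8 held at least 1 core. The letters are a description of the windows. Both Rcan1 probes are annotated to the gene as a whole, so the promoter behind the transcripts they read is unknown.

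The question of the design was whether the transgene, age or both changed expression. A gene was called at P below 0.005 in the linear model of limma fitted to all probes, the threshold named in the methods, with p-values adjusted by Benjamini-Hochberg given beside it, and the brightest probe stood for its gene. Of the 10 genes, 9 (all but Nfatc2) were detected on at least 4 arrays by that probe. None of the 10 genes was called for genotype. In the old comparison, BACHD against WT, 0 of 10 were called, where 1.04% of all named genes were, and in the young comparison 0 of 10, where 0.482% were. Over both ages 0 of 10 were called for genotype (0.506% of all genes), and 0 of 10 for the interaction of genotype with age (0.675% of all genes). At an unadjusted P below 0.05, limma gave 2 of the 10 genes in the old comparison (6.51% of all genes), 0 in the young one (4.76%), 0 over both ages (4.82%) and 2 for the interaction (6.5%).

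The calls came with age. In old against young BACHD hearts 1 of 10 genes was called, Rcan1, which was lower, where 5.99% of all genes were called and 2.89% were lower. In old against young WT hearts 1 of 10 was called, Nfatc4, which was higher, where 3.06% of all genes were called and 1.91% were higher. Over both genotypes the 2 genes were called in the same directions, Rcan1 lower and Nfatc4 higher, where 8.14% of all genes were called, and among the 28 probes 3 were called, where 7.05% of all probes were. At an unadjusted P below 0.05, limma gave 3 of the 10 genes with age in BACHD hearts (16.8% of all genes), 4 in WT hearts (12.1%) and 4 over both genotypes (19.3%). The median log2 difference of the 10 genes was -0.04 in BACHD hearts and 0.07 in WT hearts with age, and 0.00 among all named genes in both. For genotype it was -0.05 in old hearts and 0.07 in young hearts, beside 0.00 and 0.01 among all genes. The 95% intervals of the genotype differences reached from -0.57 to 0.45 over the 10 genes in old hearts and from -0.50 to 0.57 in young hearts. These ranges span all 10 genes, and the interval of a single gene was narrower, as with Ppp3cb in old hearts (-0.17 to 0.04).

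**Figure D1:**
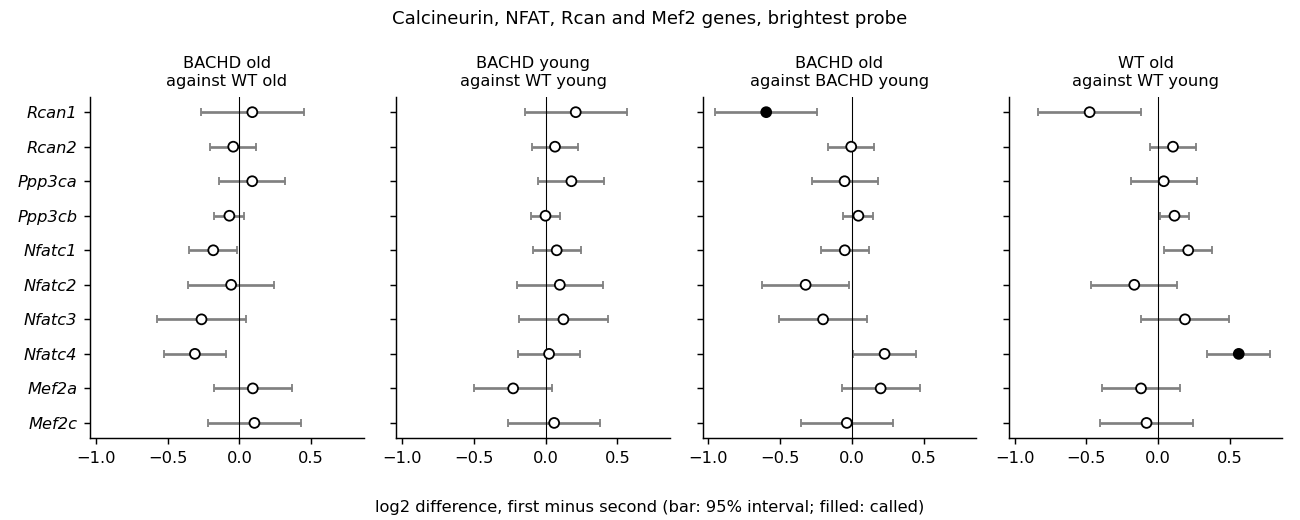
Log2 difference of the brightest probe of each of the 10 genes, first group minus second, in 4 comparisons of 4 against 4 arrays. Points are the limma estimates, bars their 95% intervals, and filled points are genes called at P below 0.005, Rcan1 (-0.60) with age in BACHD hearts and Nfatc4 (0.56) with age in WT hearts.

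Rcan1, the feedback inhibitor of calcineurin, was lower in old hearts. Its brighter probe (ILMN_2701991) read 11.39, 11.30, 11.38 and 11.24 on the normalized log2 scale in old BACHD hearts 1 to 4, and 11.44, 11.27, 11.50 and 10.74 in old WT hearts 1 to 4. In young hearts it read 11.65, 12.13, 11.94 and 11.98 in BACHD and 11.30, 11.64, 11.96 and 11.96 in WT. All 4 old BACHD hearts lay below all 4 young BACHD hearts, whereas the WT groups overlapped, with young WT 1 below 2 of the old WT hearts and old WT 4 far below the rest. The means were 11.33 ± 0.07 in old BACHD, 11.24 ± 0.35 in old WT, 11.92 ± 0.20 in young BACHD hearts and 11.71 ± 0.32 in young WT hearts (SD, n = 4 each).

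The age difference of this probe was -0.60 ± 0.17 (SE) in BACHD hearts, 1.51-fold lower in old hearts, with a limma P of 0.0028, an adjusted p of 0.068 and a two-sided exact permutation p of 0.0286, the smallest that 4 against 4 arrays can give. In WT hearts it was -0.48 ± 0.17, with a limma P of 0.012 and an adjusted p of 0.26, and it was not called (exact permutation p = 0.0857). The 2 age differences did not differ beyond their error, with an interaction of -0.12 ± 0.24, a 95% interval of -0.62 to 0.39 and a limma P of 0.62. Over both genotypes Rcan1 fell by 0.54 ± 0.12 with age, 1.45-fold lower, with a limma P of 0.00039 and an adjusted p of 0.015. The genotype difference was 0.09 ± 0.17 in old and 0.21 ± 0.17 in young hearts, neither past the threshold (limma adjusted p = 0.97 in each).

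The dimmer Rcan1 probe (ILMN_1259180) was detected on 15 of the 16 arrays, all but 1 old WT array, and showed a wider spread. It read 7.16, 6.24, 7.67 and 6.89 in old BACHD hearts and 7.58, 7.68, 7.41 and 5.34 in old WT hearts. It read 7.06, 8.43, 9.27 and 9.15 in young BACHD hearts and 7.07, 8.41, 9.02 and 9.44 in young WT hearts. In both genotypes 3 of the 4 young hearts lay above all old hearts, and young heart 1 lay among the old ones. Over both genotypes the age difference was -1.48 ± 0.43, 2.80-fold lower in old hearts, and it was called (limma P of 0.0035, adjusted p = 0.057), while neither genotype was called alone (limma P of 0.027 in BACHD and 0.028 in WT). Across the 16 arrays, deviations of the 2 probes from their group means had a Pearson r of 0.86, and since both read 1 gene in the same RNA this says only that the probes moved together.

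**Figure D2:**
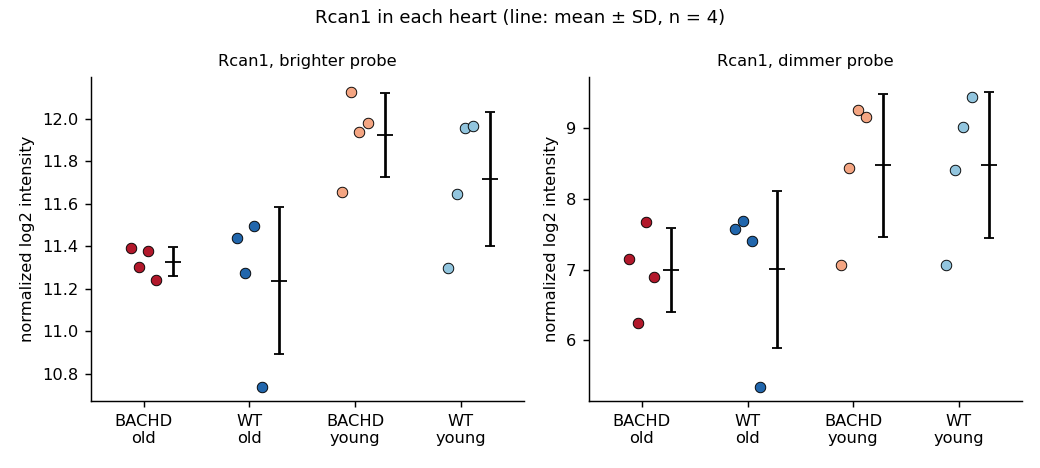
Normalized log2 intensity of the 2 Rcan1 probes in each heart, with the mean ± SD beside the 4 points of each group. On the brighter probe the old BACHD hearts (11.24 to 11.39) lie below the young BACHD hearts (11.65 to 12.13), and old WT 4 is the lowest of all on both probes (10.74 and 5.34).

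The Rcan1 call over both genotypes was kept in 25 of 26 alternatives, each omission of 1 array included, and ended only without the 4 old arrays of raised atrial markers. Of the 26, no background correction and the authors' processed values are the same analysis. In BACHD hearts alone the call ended when any 1 of 7 of the 8 arrays was left out, all but young BACHD 1, and over the 8 omissions the difference was -0.69 to -0.53 with a limma P of 0.0016 to 0.011. Without those 4 arrays, the Rcan1 difference was -0.41 over both genotypes and -0.58 in BACHD hearts, but it was not called (limma P of 0.0079 and 0.0083), and each old group then held 2 arrays. In WT hearts the age difference was called without young WT 1 (-0.62, with a limma P of 0.0016) and with median scaling (-0.53, with a limma P of 0.0044). The call of the dimmer probe over both genotypes ended when any 1 of 10 of the 16 arrays was left out. These were all but heart 1 of both young groups, old BACHD 3 and old WT 1, 2 and 3, with differences between -1.51 and -1.21. It also ended with trended and robust variances (limma P of 0.0088) and without the 4 arrays of raised atrial markers (-1.38, limma P of 0.015).

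Rcan1 moved with several genes of the circadian clock from heart to heart, though not with all of those measured. Dbp, a clock output gene whose transcript swings widely over the day, read 12.26, 12.54, 11.89 and 12.07 in old BACHD hearts and 10.24, 11.66, 11.38 and 12.98 in old WT hearts. It read 10.15, 10.08, 10.03 and 10.14 in young BACHD hearts and 11.57, 11.49, 10.11 and 10.19 in young WT hearts. Old WT 4, with the lowest Rcan1, had the highest Dbp, and the 2 young WT hearts of high Dbp had the lowest Rcan1 of their group. Over the 16 hearts the brighter Rcan1 probe had a Pearson r of -0.87 (permutation p = 1.0e-05, the smallest that 100000 resamples can give) and a Spearman rho of -0.87 with Dbp (permutation p = 1.0e-05), and -0.82 without the 2 hearts farthest from the median of Dbp.

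With Arntl, which encodes the clock activator BMAL1, r was 0.78 (permutation p = 0.00061) and rho 0.66 (permutation p = 0.0069), and 0.81 without the 2 farthest hearts. The permutations shuffled all 16 hearts without regard to group, so their p-values also count the difference between ages that the genes share. Since the ages form separate groups, r was also taken over the deviations from the group means, where it was -0.80 with Dbp and 0.71 with Arntl. No p was computed for r over these deviations. Within the 8 old hearts r with Dbp was -0.67 and within the 8 young hearts -0.82. In all, 22 relations were computed, 2 Rcan1 probes with 11 clock genes detected on at least 4 arrays. On the brighter probe, Dbp and Arntl had Benjamini-Hochberg adjusted permutation p of 0.00022 and 0.0023 for r. For rho these were 0.00022 and 0.017. On the same probe, Clock (r = 0.40, adjusted permutation p = 0.13) and Per2 (r = -0.47, adjusted permutation p = 0.070) did not reach an adjusted p of 0.05 for r. The other clock genes did. Some relations differed between the ages, as with Ciart, which had r of 0.25 within young hearts and -0.62 within old hearts.

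Of the 14 clock genes measured, 4 were called higher in old than in young BACHD hearts (Dbp, Nr1d1, Cry2 and Ciart), where 5.99% of all genes were called. In old against young WT hearts 0 were called, where 3.06% of all genes were. Over both genotypes 3 were called higher in old hearts and 0 lower, where 8.14% of all genes were called. The mean level of the 14 genes was 7.52 to 8.06 in old BACHD, 6.97 to 8.08 in old WT, 7.13 to 7.29 in young BACHD and 7.06 to 7.42 in young WT arrays, and Npas2, Cry1 and Hlf were not detected on any array. The sources used here do not give the hour of collection, and the part of clock phase in the Rcan1 difference was not tested.

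Other marker genes were called lower in old than in young BACHD hearts beside Rcan1. Of 6 fibroblast markers these were Col1a1 and Col1a2, both collagen I chains, with log2 differences of -1.25 and -0.82, and with Col1a2 detected on 3 arrays. In the other direction, 3 of the 6 fibroblast markers had positive differences, and the median of the list was -0.04. Of 4 macrophage markers Adgre1 was called lower (-0.80), and 1 of the 4 had a positive difference. Of 10 immediate early genes Fosb was called lower (-0.43), although Fosb was not detected on any array, and 3 of the 10 had positive differences. Of all genes, 2.89% were called lower in this comparison. The mean level of the fibroblast list was 8.53 to 8.97 in old BACHD, 8.66 to 9.10 in old WT, 9.003 to 9.093 in young BACHD and 8.79 to 9.19 in young WT arrays. For the macrophage list it was 7.13 to 7.75 in old BACHD, 7.53 to 7.77 in old WT, 7.70 to 7.90 in young BACHD and 7.56 to 8.03 in young WT arrays. For the immediate early list it was 6.36 to 6.84 in old BACHD, 6.61 to 7.49 in old WT, 7.02 to 7.13 in young BACHD and 6.55 to 6.88 in young WT arrays, with a median age difference of -0.40 in BACHD hearts, and the part of these genes in the Rcan1 difference was not tested.

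**Figure D3:**
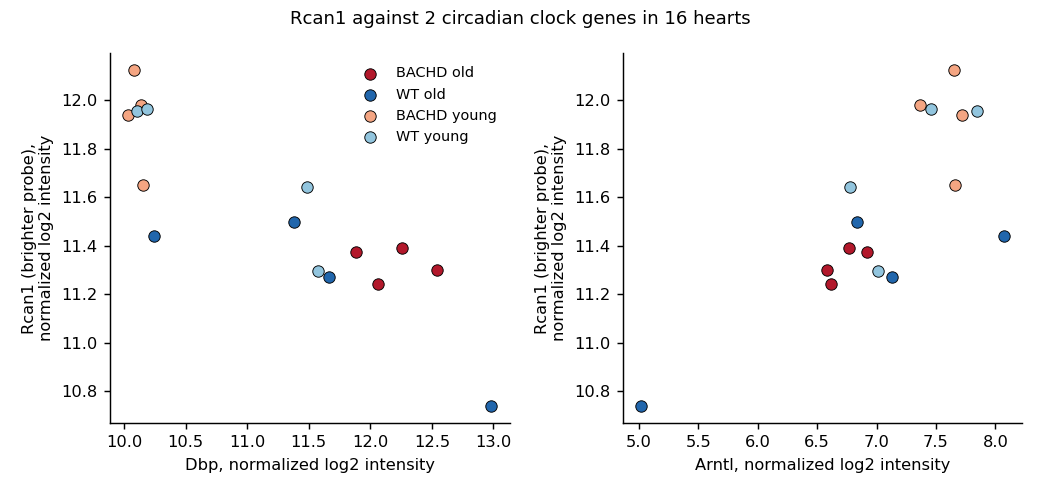
Normalized log2 intensity of Rcan1 (brighter probe) against Dbp (left) and Arntl (right), 1 point for each of the 16 hearts, coloured by group. Rcan1 is low where Dbp is high (Pearson r = -0.87) and high where Arntl is high (r = 0.78), and old WT 4 lies at the end of both plots.

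Neither relative of Rcan1 was called lower with age. Rcan2, a calcineurin inhibitor that is abundant in heart, read 12.86 ± 0.04 in old BACHD, 12.90 ± 0.09 in old WT, 12.86 ± 0.08 in young BACHD hearts and 12.80 ± 0.15 in young WT hearts on its brightest probe (ILMN_3106592), and all groups overlapped. None of its 3 probes was called in any comparison, and the smallest limma P of the brightest probe was 0.19. The age difference was -0.01 in BACHD hearts, with a 95% interval of -0.16 to 0.15, and 0.10 in WT hearts, with an interval of -0.06 to 0.26. The 3 Rcan2 probes did not move together, with r of the deviations from group means between -0.61 and 0.42. Rcan3, the remaining family member, rose with age over both genotypes by 0.27 ± 0.07 (limma P of 0.0011, adjusted p = 0.028), and its second probe was called too (0.24, limma P of 0.0011).

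No catalytic subunit of calcineurin was called in any comparison. Ppp3cb, which encodes the beta catalytic subunit, read 11.74, 11.75, 11.81 and 11.76 in old BACHD hearts and 11.88, 11.78, 11.85 and 11.83 in old WT hearts. It read 11.76, 11.71, 11.70 and 11.72 in young BACHD hearts and 11.77, 11.74, 11.70 and 11.67 in young WT hearts. All 4 old WT hearts lay above the young WT hearts, by margins that are small in size, since the difference was 0.11 ± 0.05 with a limma P of 0.035 and an adjusted p of 0.40. It was called with an offset of 50 (0.11, limma P of 0.0024), and not in the main analysis. Ppp3ca, the alpha catalytic subunit, read 9.68 ± 0.11 in old BACHD, 9.59 ± 0.12 in old WT, 9.73 ± 0.19 in young BACHD hearts and 9.55 ± 0.19 in young WT hearts. Its smallest P was that of the genotype difference over both ages, 0.13 with a 95% interval of -0.03 to 0.30 (limma adjusted p = 0.98), and its second detected probe was not called in any comparison either. A list of 5 calcineurin subunits, of which 4 had a probe, held 0 genes called in any comparison. With age over both genotypes, the smallest P of the list was that of Ppp3cc, the gamma catalytic subunit, with -0.16 ± 0.07 (limma P of 0.032, adjusted p = 0.22).

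Nfatc4, one of the 4 calcineurin-dependent NFAT factors, was higher in old WT hearts. It read 6.90, 7.30, 6.79 and 6.82 in old BACHD hearts and 7.21, 7.30, 7.31 and 7.23 in old WT hearts. In young hearts it read 6.74, 6.86, 6.59 and 6.71 in BACHD and 6.58, 6.72, 6.86 and 6.64 in WT. The old WT hearts lay above all young hearts, and in old BACHD hearts only heart 2 reached their level, while the other 3 lay at 6.79 to 6.90, at the upper end of the young hearts.

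In WT hearts the age difference was 0.56 ± 0.10, 1.48-fold higher in old hearts (limma P of 6.1e-05, adjusted p = 0.018, exact permutation p = 0.0286). In BACHD hearts it was 0.23 ± 0.10 and was not called (limma P of 0.042, adjusted p = 0.30, exact permutation p = 0.0857). The difference between the 2 was -0.33 ± 0.14 with a limma P of 0.036 and an adjusted p of 0.80, so it did not pass the threshold. Over both genotypes Nfatc4 rose by 0.39 ± 0.07 with age (limma P of 6.5e-05, adjusted p = 0.0049), and this was called in all 26 alternatives tried. Here too, no background correction and the authors' processed values are the same analysis. Between genotypes Nfatc4 was -0.31 ± 0.10 in old hearts, BACHD minus WT (limma P of 0.0084, adjusted p = 0.64), and 0.02 ± 0.10 in young hearts. That value depended on old BACHD 2, the old BACHD heart nearest to the old WT hearts, so leaving it out had to widen the old difference. Without old BACHD 2 the old genotype difference was -0.43 and was called (limma P of 9.6e-05), as were the difference between the ages (-0.45, limma P of 0.00094) and the genotype difference over both ages (-0.20, limma P of 0.0023). None of these passed an adjusted p of 0.05 in that setting. Old BACHD 2 is not among the Nfatc4 or other values flagged below, so it gives no reason to drop the heart.

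NFAT factors also act in vascular smooth muscle. Of the 5 smooth muscle markers measured, 1, Myh11, was called higher in old WT than in young WT hearts, and 0 were called lower. Myh11, the smooth muscle myosin heavy chain, differed by 0.82 ± 0.19 (limma P of 0.00054, adjusted p = 0.062). Differences were positive for 4 of the 5. Of all genes, 3.06% were called in that comparison and 1.91% were higher. Myh11 was also called higher with age over both genotypes, where 8.14% of all genes were called. In BACHD hearts alone it was not called, and it read 7.46 to 7.84 in old and 6.80 to 7.65 in young hearts. The mean level of the 5 markers was 8.02 to 8.42 in old BACHD, 8.15 to 8.50 in old WT, 7.95 to 8.31 in young BACHD hearts and 7.91 to 8.17 in young WT hearts, and Tagln and Cnn1 were not detected on any array by their brightest probe. Their part in the Nfatc4 difference was not tested.

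Nfatc1, known for its role in endocardium and valve formation, read 8.24, 8.16, 8.23 and 8.37 in old BACHD hearts and 8.37, 8.48, 8.51 and 8.37 in old WT hearts on its brightest probe (ILMN_1216522). On this probe the old groups did not overlap, with the highest old BACHD heart just under the lowest old WT heart. The difference was -0.18 ± 0.08 (limma P of 0.035, adjusted p = 0.78, exact permutation p = 0.0286). In young hearts it averaged 8.30 ± 0.12 in BACHD and 8.22 ± 0.13 in WT (SD), a difference of 0.08 ± 0.08, and the change of the genotype difference with age was -0.26 ± 0.11 (limma P of 0.033, adjusted p = 0.79). With age in WT hearts this probe gave 0.21 ± 0.08, with a limma P of 0.017, and it was called without young WT 2 (0.27, with a limma P of 0.0041). The second Nfatc1 probe (ILMN_2648455) was higher in old hearts over both genotypes, by 0.29 ± 0.09, just short of the threshold (limma P of 0.0062, adjusted p = 0.082), where the brightest probe gave 0.08 ± 0.06. It was called with the authors' processed values (0.20) and with 1 of 4 arrays left out (young BACHD 1 or 2, young WT 2 or old WT 4). The genotype difference of this second probe in old hearts was -0.15 (limma P of 0.28), and its old groups overlapped. Its interaction of genotype with age was -0.08 (limma P of 0.67). Of the 6 Nfatc1 probes, 2 were detected on all 16 arrays, 1 on 5 arrays and 3 on none.

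Nfatc3 read 5.70, 5.70, 5.65 and 5.35 in old BACHD hearts and 5.86, 5.87, 5.96 and 5.76 in old WT hearts, and the groups did not overlap. The difference was -0.26 ± 0.14, with a limma P of 0.088, an adjusted p of 0.87 and an exact permutation p of 0.0286. In young hearts it averaged 5.80 ± 0.20 in BACHD and 5.68 ± 0.34 in WT, and its probe was detected on 13 of the 16 arrays, so its level was close to the limit of detection. Its interaction of genotype with age, -0.39 ± 0.20, was called without young WT 3 (-0.54, with a limma P of 0.0044). By the brightest probe, 2 of the 10 genes thus had groups that did not overlap in the old comparison, BACHD against WT, Nfatc1 and Nfatc3. Among all named genes 3.20% did not overlap there. In the young comparison 0 of 10 did not overlap, where 3.01% of all genes did not. With age, 2 of 10 did not overlap in WT hearts, Nfatc4 and Ppp3cb, where 7.33% of all genes did not, and 1 of 10 in BACHD hearts, Rcan1, where 9.92% did not.

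Nfatc2, which is best known from T cells, was not well detected. Its brightest probe (ILMN_3082773) passed detection on 0 of 4 old BACHD, 0 of 4 old WT, 2 of 4 young BACHD and 1 of 4 young WT arrays, and its other 4 probes on none. Its values were between 5.24 and 6.09 in all groups, so only a bound can be given for it. Its age difference in BACHD hearts, -0.32 with a limma P of 0.037, was called without young BACHD 3 (-0.49, with a limma P of 0.00048). Of the 4 T cell markers measured, Cd3d, Cd3e and Cd8a were not detected on any array, while Cd3g, detected on 1 array, read 4.48 to 5.89 and was called higher in old than in young WT hearts near background. Nfat5, a relative that answers to salt stress and does not depend on calcineurin, rose with age over both genotypes by 0.45 ± 0.11 (limma P of 0.0012, adjusted p = 0.029). It read 8.75, 8.87, 8.65 and 8.65 in old BACHD hearts and 8.95, 9.14, 8.58 and 8.54 in old WT hearts, and 8.55, 8.54, 8.13 and 8.32 in young BACHD hearts and 8.49, 8.31, 8.42 and 7.79 in young WT hearts. In each genotype all old hearts lay above all young ones, and its second probe, detected on 13 arrays, gave 0.20 and was not called (limma P of 0.22). Of the 6 genes of the NFAT list, 2 were thus called higher with age over both genotypes and 0 lower, where 8.14% of all genes were called. The median difference of the list was 0.07 beside 0.00 among all genes.

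**Figure D4:**
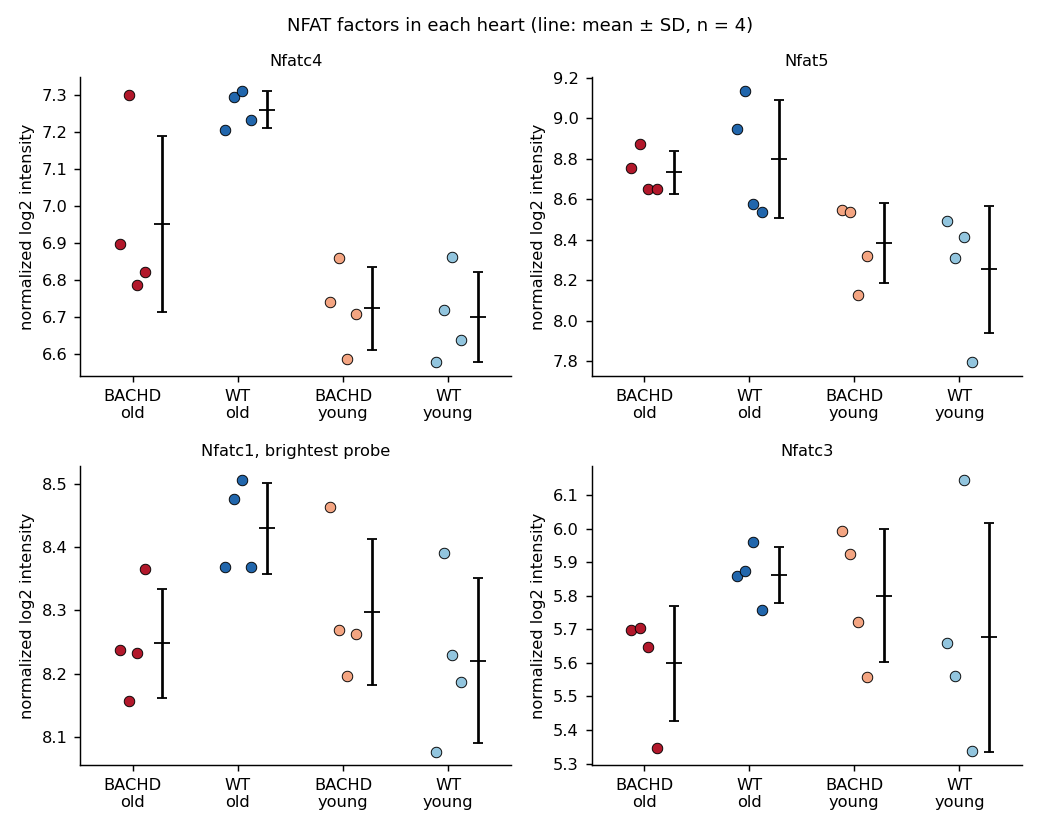
Normalized log2 intensity of Nfatc4, Nfat5, Nfatc1 and Nfatc3 in each heart, with the mean ± SD beside the 4 points of each group. For Nfatc4 the old WT hearts lie at 7.21 to 7.31, above all young hearts, while 3 of the 4 old BACHD hearts lie at 6.79 to 6.90. For Nfatc1 (brightest probe) and Nfatc3 the old BACHD and old WT hearts do not overlap.

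The MEF2 factors, which act on muscle genes beside NFAT, were not called in any comparison. Mef2a read 6.82 ± 0.19 in old BACHD, 6.72 ± 0.11 in old WT, 6.62 ± 0.29 in young BACHD hearts and 6.84 ± 0.10 in young WT hearts on its brightest probe. Its genotype difference was 0.09 in old hearts, with a 95% interval of -0.18 to 0.37, and -0.23 in young hearts, with an interval of -0.50 to 0.05. The second Mef2a probe detected (ILMN_1251160) gave 0.42 ± 0.21 in old hearts (limma P of 0.061, adjusted p = 0.85). Mef2c read 8.87 ± 0.05 in old BACHD, 8.76 ± 0.21 in old WT, 8.90 ± 0.34 in young BACHD hearts and 8.84 ± 0.22 in young WT hearts, and all groups overlapped. Another Mef2c probe (ILMN_1214950) gave -0.41 ± 0.16 with age over both genotypes, short of the threshold (limma P of 0.021, adjusted p = 0.17) and past it without old BACHD 3 (-0.49), where the brightest probe gave -0.06 ± 0.11. Of the 4 MEF2 genes measured, Mef2d had the smallest P with age over both genotypes, with -0.29 ± 0.25 and a limma P of 0.26, and it was detected on 6 arrays.

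Beside the 10 genes, 66 further genes of the pathway were measured, in lists of calcineurin subunits and inhibitors, NFAT kinases, calmodulin and its kinases, calcium entry, MEF2 partners and targets, and genes that report hypertrophy. With age over both genotypes 6 of the 66 were called higher and 3 lower, where 8.14% of all genes were called. In BACHD hearts with age 2 were higher and 2 lower (5.99% of all genes), and in WT hearts with age 2 were higher and 2 lower (3.06% of all genes). For genotype 2 were higher in old BACHD hearts (1.04% of all genes) and 1 in young BACHD hearts (0.482%), and 0 were lower in either. With so few genes called, nothing is read from these counts.

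Among the calmodulin kinases, Camk1 was lower in old hearts of both genotypes. It read 9.91, 9.98, 10.26 and 9.91 in old BACHD hearts and 10.21, 10.16, 10.09 and 10.23 in old WT hearts, and 10.50, 10.48, 10.60 and 10.71 in young BACHD hearts and 10.55, 10.52, 10.47 and 10.48 in young WT hearts. Every old heart lay below every young heart, and the difference was -0.56 ± 0.08 in BACHD (limma adjusted p = 0.0017), -0.34 ± 0.08 in WT (limma adjusted p = 0.067) and -0.45 ± 0.06 over both (limma adjusted p = 0.00027). Camk2b, the beta subunit of calmodulin kinase II, was higher in old than in young WT hearts by 0.70 ± 0.12 (limma adjusted p = 0.014), and by 0.19 ± 0.12 in BACHD hearts, which was not called. The difference between these 2, -0.51 ± 0.17, missed the threshold (limma P of 0.010). Camk2d, the delta subunit and main form in the heart, was lower in old WT hearts on its brightest probe (-0.34 ± 0.09, limma P of 0.0024, adjusted p = 0.13), a call that ended without any 1 of 4 arrays (young WT 2 or 4, old WT 3 or 4). A second Camk2d probe detected on all 16 arrays gave -0.30 (limma P of 0.051), and another, detected on 8 arrays, gave 0.46 in the other direction (limma P of 0.016). Of the 10 genes of this list, 1 was called higher and 2 lower in old WT hearts (3.06% of all genes called), and 0 higher and 1 lower in old BACHD hearts (5.99%).

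Of the 11 NFAT kinases, which send NFAT back out of the nucleus, 1 was called. Mapk8, the stress kinase JNK1, read 8.40, 8.21, 8.32 and 8.15 in old BACHD hearts and 8.73, 8.61, 8.68 and 8.59 in young BACHD hearts, and the groups did not overlap. Its difference was -0.38 ± 0.08 in BACHD hearts (limma adjusted p = 0.020) and 0.01 ± 0.08 in WT hearts, and the difference between these passed the threshold, -0.39 ± 0.11 (limma P of 0.0037, adjusted p = 0.76). That last call was kept in 7 of 16 omissions of 1 array, with differences of -0.46 to -0.34, and it ended with median scaling (-0.34, limma P of 0.036). Fkbp1a, the immunophilin that binds calcineurin in the presence of FK506, was lower with age over both genotypes (-0.20 ± 0.06, limma P of 0.0049, adjusted p = 0.070). Of the 8 genes of calcium entry, Trpc1 alone was called, higher in old than in young BACHD hearts, but it was not detected on any array.

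Among the MEF2 partners, Hand2, a transcription factor of heart development, rose with age over both genotypes by 0.64 ± 0.15 (limma P of 0.00058, adjusted p = 0.019). Over both genotypes all 10 genes of that list had positive age differences, between 0.00 and 0.64, and Hand2 was the one called. Their median was 0.15 beside 0.00 among all genes. In WT hearts alone 10 of 10 were positive (median 0.18), and in BACHD hearts alone 6 of 10 (median 0.01). Hdac9 was not detected on any array, and Tbx5 was detected on 1. Of 8 MEF2 target genes 1 was called, Xirp1, an actin-binding protein of the intercalated disc, which was higher with age over both genotypes by 0.31 ± 0.09 (limma P of 0.0040, adjusted p = 0.061).

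The hypertrophy reporters were the list of this pathway with calls for genotype. Myh7, the slow myosin heavy chain of the fetal heart, read 9.67, 10.26, 7.64 and 11.33 in old BACHD hearts and 7.73, 7.33, 7.83 and 7.19 in old WT hearts, and 6.28, 6.69, 5.25 and 6.06 in young BACHD hearts and 6.26, 6.29, 6.28 and 5.68 in young WT hearts. Of the 4 old BACHD hearts, 3 lay above all other hearts, and old BACHD 3 lay among the old WT hearts. The old genotype difference was 2.21 ± 0.54 (limma P of 0.0010, adjusted p = 0.44), and the age difference in BACHD hearts was 3.66 ± 0.54 (limma adjusted p = 0.0025). Nppa, the atrial natriuretic peptide, was higher in old BACHD than in old WT hearts by 1.33 ± 0.30 (limma P of 0.00054, adjusted p = 0.39), and Nppb, the brain natriuretic peptide, was higher in young BACHD than in young WT hearts by 0.47 ± 0.12 (limma P of 0.0018, adjusted p = 0.88). Nppa is also a gene of the atria. Without the 4 arrays of raised atrial markers the old difference was 1.78 for Nppa and 2.19 for Myh7, both still called. Of the age calls over both genotypes, those of Rcan3, Nfat5, Fkbp1a, Mapk8 and Xirp1 ended without these arrays, although the differences of Rcan3 (0.27), Nfat5 (0.47) and Xirp1 (0.38) were as large or larger, and those of Fkbp1a and Mapk8 were -0.18 and -0.13. With median scaling the age calls over both genotypes of Rcan3 (limma P of 0.028), Nfat5 (0.015), Xirp1 (0.039), Mapk8 (0.022) and Fkbp1a (0.0056) ended too, as did Camk2d (0.013) and Nfat5 (0.038) in WT hearts, Trpc1 in BACHD hearts (0.0062) and Nppb over both ages (0.0055). With 1 array left out at a time, the age calls of Fkbp1a and Xirp1 were kept in 5 of 16 omissions each and that of Mapk8 over both genotypes in 3 of 16, and the call of Nppb in young hearts in 5 of 8. In the same old BACHD hearts the brighter Rcan1 probe stood at 11.24 to 11.39 and in the old WT hearts at 10.74 to 11.50, and the genotype difference of Rcan1 was 0.09 and not called. Myh7 and Nppa overlapped between the old genotypes as well, through old BACHD 3.

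**Figure D5:**
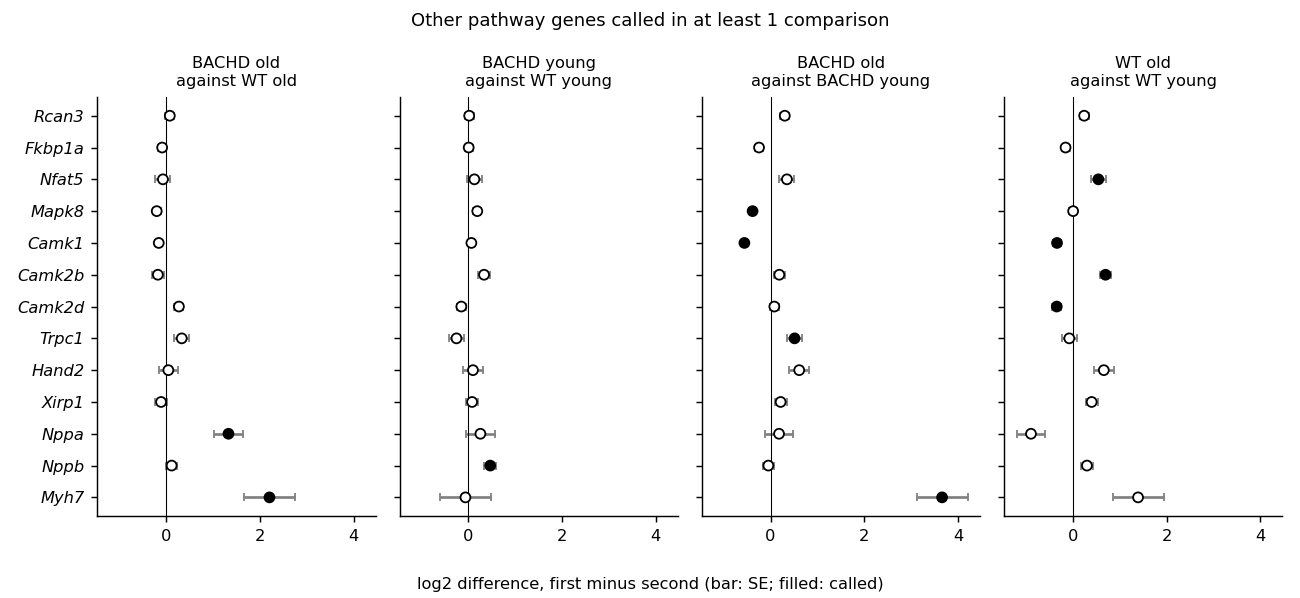
Log2 difference, first group minus second, of the 13 further pathway genes called in at least 1 comparison of the study, in the 4 comparisons of 4 against 4 arrays. Points are limma estimates, bars their SE, and filled points are called at P below 0.005. Myh7 is the farthest from 0, with 2.21 in old BACHD against old WT and 3.66 with age in BACHD hearts, and Trpc1 was not detected on any array.

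Finally, the named genes most alike in pattern to the 4 members with the smallest P of an F-test over the groups were listed, by Pearson r over the 16 arrays among 7746 other genes detected on at least 4 arrays. For Rcan1 these were Oas1g (r = 0.91), Pkn2 (0.90), Hbegf (0.87), Spon2 (0.86) and Prkra (0.86). For Nfatc4 they were Lgals4 (r = 0.87), Syp (0.86), Diaph1 (0.85), Sptb (0.84) and Zdhhc14 (0.83). For Nfatc1 they were Otud7b (r = 0.83), Odf3b (0.81), Mgll (0.77), Daglb (0.76) and Mon2 (0.74), and for Ppp3cb Slc17a7 (0.87), Acsm5 (0.84), Nisch (0.83), Plec (0.82) and Tmprss13 (0.81). These are the highest of many values, over arrays that share their groups. Among the members themselves, deviations from the group means moved together most for Ppp3ca and Nfatc3 (r = 0.73), Ppp3ca and Mef2c (0.69) and Nfatc3 and Mef2c (0.60), over the same 16 arrays.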

How the data were processed

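The authors extracted bead signals with BeadStudio (version not given in the sources used here) and deposited the bead intensity of 25697 probes, not normalized between arrays, together with detection p-values. Processed log2 values were deposited too, which equal the quantile-normalized log2 intensity to within 5.0e-09 and served as an alternative. The alternative without background correction therefore used the same values and adds no separate check. From the deposited intensity, neqc of limma 3.58.1 (R 4.3.3) computed log2 values by normexp with an offset of 16 and quantile normalization, with the level of the negative controls taken from the detection p-values. All probes were fitted in 1 linear model with 4 groups and moderated variances, and p-values were adjusted by Benjamini-Hochberg over all probes. SE are those of the model.

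Groups and replicate numbers came from the labels, and each array was taken as 1 mouse, so the number of arrays limits the precision. Probes were named by the platform annotation, with 1 symbol for 23978 probes. The other 1719, with no single symbol, were left unnamed. All 28 member probes matched a RefSeq gene by gene ID with the same symbol. The text names every member, each pathway gene called in at least 1 comparison or, in a list without one, that of smallest P, and the 5 genes most alike to 4 members. The members and lists were chosen with earlier results of these data known. Exact permutation tests were two-sided over the 70 divisions of 8 arrays, and permutation tests of correlations used 100000 resamples of all arrays, without regard to group. The method was tested on simulated data with independent noise in each probe and differences placed in the young BACHD arrays. Effects that arrays share were not simulated. Alternatives were an offset of 50, the values as the authors processed them, no background correction, median scaling, only probes detected on at least 4 arrays, probes of a gene averaged, only the arrays of a comparison, array weights, trended and robust variances, the replicate number as a block, each array left out in turn and, chosen after seeing the data, leaving out the 4 arrays of raised atrial markers.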

Additional observations from a re-analysis of the deposited data

Results flagged for a closer look

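In 5 cases a value stood apart in their group of 4, by a gap to the nearest array above the limit of Dixon's test, among 72 groups examined over the 18 member probes detected on at least 4 arrays. Chance gives about 1 in 20 groups, so a few are expected. On the dimmer Rcan1 probe, old WT 4 read 5.34 and the other old WT arrays 7.41 to 7.68, a gap of 0.883 of the range. On the second Ppp3ca probe, young WT 2 read 8.04 and the others 8.51 to 8.56 (0.894). For Nfatc3, old BACHD 4 read 5.35 and the others 5.65 to 5.70 (0.841). On the second Mef2c probe, young BACHD 4 read 6.94 and the others 7.54 to 7.65 (0.833), and on the third Mef2c probe old WT 3 read 6.73 and the others 6.88 to 6.90 (0.892). No explanation of these values was tested.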

How the results depend on the processing

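The number of the 10 genes called changed in few settings. In old against young WT hearts it was 1, and 2 with an offset of 50 (Ppp3cb added) and with median scaling (Rcan1 added). Of all 25697 probes, 711 were called there in the main analysis, 750 with an offset of 50 and 484 with median scaling. In old against young BACHD hearts it was 1, and 0 with the probes of a gene averaged and 0 without the 4 arrays of raised atrial markers. Of all probes, 1324 were called there in the main analysis and 1108 without those arrays, and 977 of 16593 genes with probes averaged. Over both genotypes with age it was 2, and 1 without those 4 arrays, 3 with an offset of 50 (Ppp3cb added) and 3 without young BACHD 3 (Nfatc2 added). Of all probes, 1811 were called there in the main analysis, and 1336, 1895 and 1595 in these settings, in that order. With 1 array left out at a time it was 0 to 1 for genotype in old hearts, 0 to 1 for genotype over both ages, 0 to 1 for the difference between the ages, 1 to 2 with age in WT hearts, 0 to 1 with age in BACHD hearts and 2 to 3 with age over both genotypes. Among all probes the calls over these omissions, in the same order, were 154 to 443, 101 to 210 and 121 to 331. With age they were 493 to 684, 909 to 1611 and 1520 to 2013. The cause of these changes was not tested, except that leaving out arrays leaves fewer samples. No called value changed sign in any setting.

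With the replicate number as a block, the counts were 0 and 0 for genotype in old and young hearts, 1 and 1 with age in BACHD and WT hearts, 0 for the difference between the ages, 0 for genotype and 2 for age, as without the block. The block did add calls on lesser probes, with age over both genotypes for 2 further Nfatc1 probes (0.29 and 0.21) and 1 of Mef2c (-0.41), and with age in WT hearts for Nfatc1 (0.27), and it ended those of Fkbp1a with age and Nppb for genotype over both ages. Arrays that share a number correlated between -0.50 and 0.44 in their deviations from the group means, and 12 of 24 pairs were over 0.1. Every negative value came from a pair with a young WT array. The labels name no pairs, so the numbers were not taken as pairs. In all, 7 of 16 arrays correlated best with an array of their own number, a hint from the data and not from the design. The chip as a block was not run, since no chip is named in the files. Probes near the detection limit (Nfatc2, Nfatc3, Trpc1) carry little signal over background, and small differences in them cannot be resolved.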

Other observations

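On the dimmer Rcan1 probe, young arrays with the same replicate number read nearly alike across the genotypes. Young BACHD and young WT arrays read 7.06 and 7.07 for number 1, 8.43 and 8.41 for number 2, 9.27 and 9.02 for number 3, and 9.15 and 9.44 for number 4, which are differences of 0.0046, 0.025, 0.25 and 0.28. Old BACHD and old WT arrays of the same number differed by 0.42, 1.44, 0.26 and 1.55. The brighter Rcan1 probe did not show this for numbers 1 and 2, where young BACHD and young WT read 11.65 and 11.30, and 12.13 and 11.64. It read 11.94 and 11.96 for number 3 and 11.98 and 11.96 for number 4. Over probes detected on at least 4 arrays, deviations of these young pairs from group means correlated at -0.21, 0.09, -0.50 and 0.13. Young BACHD and old WT arrays of the same number correlated at 0.34, 0.11, 0.44 and 0.16. What the numbers mark cannot be told from these values, and the labels do not say.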
